A study of Homo sapiens with 2 samples.

Results

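Cytosolic ribosomal protein genes encode the proteins that assemble with ribosomal RNA into the large and the small subunit of the ribosome. They were chosen by name alone: every protein-coding gene whose symbol is RPL or RPS followed by a number, with or without a closing A or X, together with RPLP0, RPLP1, RPLP2 and RPSA. All 77 such genes of the RefSeq gene table had a probe on the array, 46 of the large and 31 of the small subunit, out of 23753 genes and unnamed transcripts measured. RNA came from HepG2, a line derived from a human liver tumour and often used to stand for hepatocytes. One culture received the vehicle DMSO and one received a hawk tea extract (HTE), both for 24 h, and each RNA was labelled with Cy3 and hybridised to 1 Agilent 1-colour expression array. The sample labels give the HTE dose as 200 µg/mL, and the study's own text gives a higher one, so the dose behind these values is not settled. With 1 array per condition there is no biological spread, no test was made, and array and treatment cannot be told apart. The words higher and lower therefore describe these 2 arrays and not the treatment.

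The large subunit forms peptide bonds and passes the growing chain through its exit tunnel, and the small subunit reads the mRNA. Cells make the ribosomal proteins in matched amounts, because a protein that finds no place in a ribosome is degraded. Their mRNAs share a terminal oligopyrimidine (TOP) motif, a C at the first transcribed base followed by a run of C and T. Through this motif the kinase complex mTORC1 and the RNA-binding protein LARP1 control how strongly these mRNAs are translated and how long they last, so the amount of mRNA and the amount of protein made can part ways. An array measures only the amount of mRNA.

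The expression of hepatocyte genes was checked first. All 11 hepatocyte markers, among them albumin (ALB), lay well above background on both arrays, and their log2 ratios ran from -0.36 for FGB to 0.32 for AHSG with a median of 0.13. Of 10 markers of other cell types, 6 passed the filter, and their log2 ratios ran from -1.82 for PECAM1 to 0.36 for KRT19. The keratin gene KRT19, a marker of bile duct cells, was bright at log2 values of 4.61 and 4.97. The collagen gene COL1A1 (-3.15 and -3.78) and the endothelial gene PECAM1 (-2.32 and -4.14) were also well above background on both arrays. So were the immune cell genes PTPRC (-0.77 and -0.64) and CD14 (-0.60 and -2.37). The collagen gene COL3A1 was well above background on the DMSO array only. The collagen gene COL1A2, the T cell gene CD3E and the endothelial gene CDH5 were not well above background, and LYZ had no probe. The part of these genes in any result below was not tested. Of the spots on each array, 60.6% (DMSO) and 56.6% (HTE) were well above background. No spot was saturated.

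The transcription start sites of the genes were compared because they carry the TOP motif. The start was annotated for 62 of the 77 genes in the RefSeq promoter table (GRCh38.p14). A TOP tract, here a C followed by at least 4 bases that are C or T on the gene strand, began exactly at the annotated start in 42 of these 62 genes (67.7%), against 4.04% of all 27305 promoters. Allowing the tract to begin within 10 bases of the start raised the share to 55 genes (88.7%), against 33.3% of all promoters. The lines below show the ubiquitous stalk protein gene RPLP0, the 4 genes with a tract at the start that lie at either end of the ratios (RPS24, RPL28, RPS12 and RPL27A), RPL10 with its tract ahead of the start, and RPL13 and RPS29 with none in the window. Each run is 30 bases long and begins 10 bases before the annotated start, and capitals mark the tract.
RPLP0, chr12:120201092-120201121, minus strand: ggcgcgaggcCCTTCTCTCgccaggcgtcc
RPS24, chr10:78033853-78033882, plus strand: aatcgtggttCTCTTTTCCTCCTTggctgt
RPL28, chr19:55385922-55385951, plus strand: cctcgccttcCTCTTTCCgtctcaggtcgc
RPS12, chr6:132814559-132814588, plus strand: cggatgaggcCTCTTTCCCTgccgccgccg
RPL27A, chr11:8682782-8682811, plus strand: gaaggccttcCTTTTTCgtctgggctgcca
RPL10, chrX:154398055-154398084, plus strand: ccaCTCTCagaaatatacgtctgtcacagt
RPL13, chr16:89560647-89560676, plus strand: tgctatcatcccagagtgcattgcggggcc
RPS29, chr14:49598691-49598720, minus strand: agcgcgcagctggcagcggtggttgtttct

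The tract stood at the start of genes with log2 ratios at both ends of the range: RPS24 and RPL28 had values of 0.31 and 0.28, and RPS12 and RPL27A had values of -0.25 each. A window without the letters says only that they are not there at the annotated start of 1 transcript. The mitochondrial ribosomal protein genes, which build the ribosome of another compartment, had a tract at the start in 7.25% of 69 promoters, and ribosome biogenesis factors in 10.8% of 83. Other mRNAs listed here as TOP mRNAs had it in 76.9% of 13. The letters CCGGAA, the core of sites for ETS family factors, occurred on either strand in 53.2% of the 62 longer promoters (250 bases before to 50 after the start) against 17.6% of all promoters. They were as frequent in mitochondrial ribosomal protein genes (56.5%), biogenesis factors (51.8%) and elongation factors (54.5%), so they are not particular to these genes. The TATA letters TATAAA occurred in 8.06% (5 of the 62) against 12.0%. All promoters include those of noncoding genes. Of the 15843 protein-coding promoters alone, 9.63% held the TATA letters and 22.9% held CCGGAA. A tract stood exactly at the start in 4.60% of them and within 10 bases in 33.8%.

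Every ribosomal protein gene was detected. All 183 spots of the 165 probes used lay well above background on both arrays. Signals are given as log2 values minus the 75th percentile of the array, so that 0 is the level of the 75th percentile, and each gene is represented by its brightest probe. On this scale the 77 genes ran from 0.81 to 5.64 with a median of 4.86 on the DMSO array, and from 0.56 to 5.63 with a median of 5.00 on the HTE array. These are signals of different probes and do not rank the transcripts by amount.

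**Figure D1:**
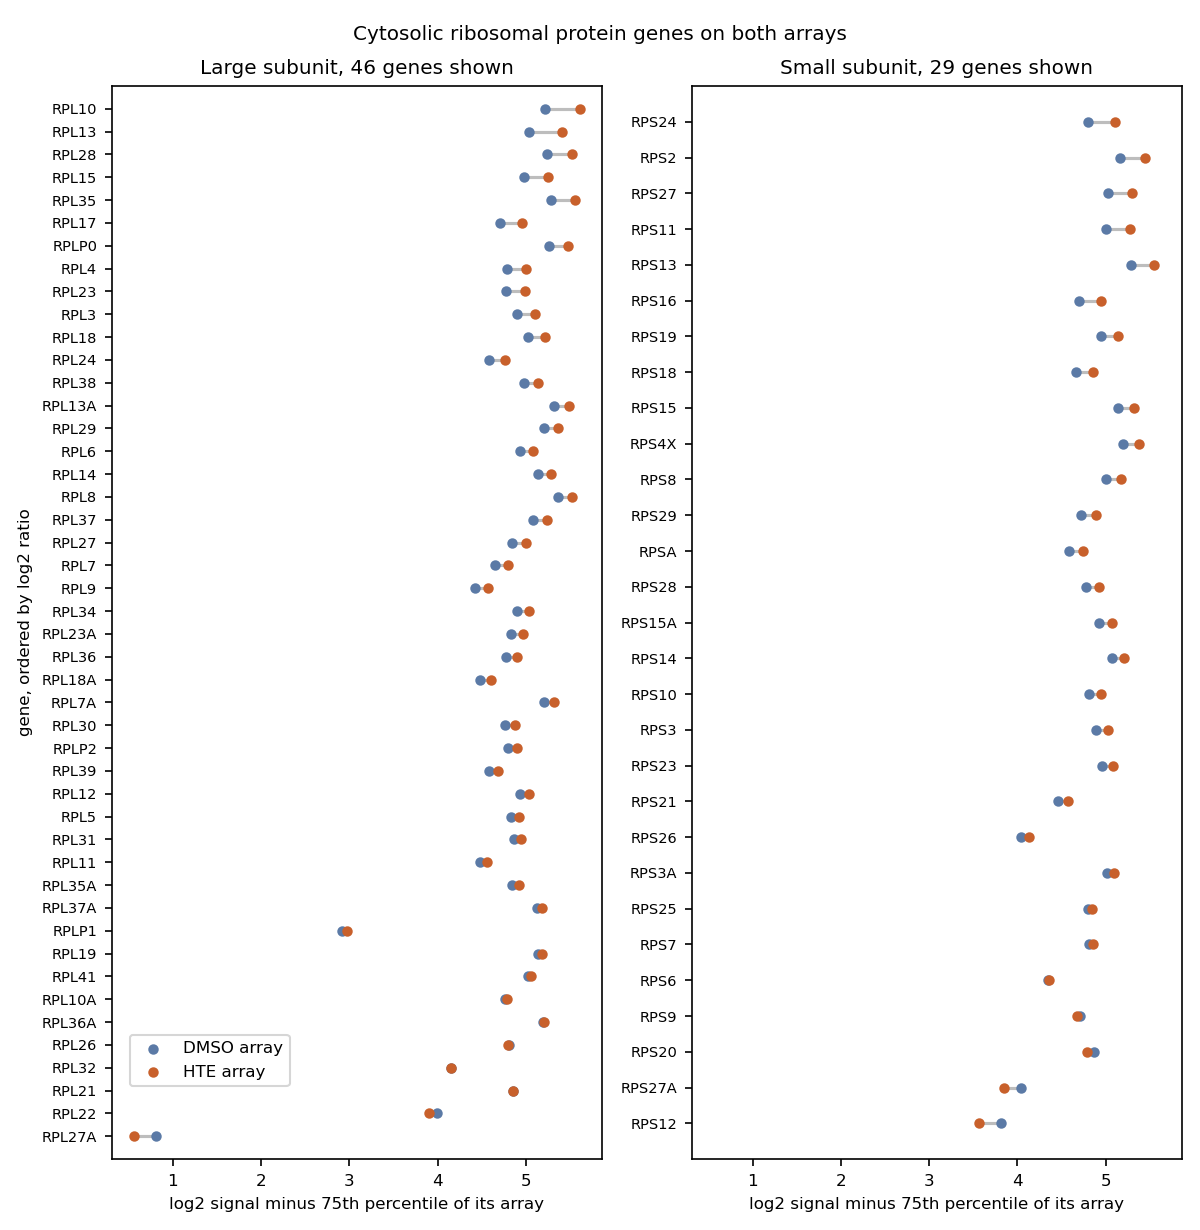
Log2 signal minus the 75th percentile of its array (x axis) for 75 of the ribosomal protein genes (y axis, ordered by log2 ratio within each subunit) on the DMSO array (blue) and the HTE array (orange), with a grey line joining both values of a gene. The points of a gene lie close together throughout, and no line is longer than the 0.40 of RPL10.

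The differences between the arrays were small and much alike across the genes. The log2 ratio of HTE over DMSO had a median of 0.14 and ran from -0.25 to 0.40 (0.839-fold to 1.32-fold), with an SD between genes of 0.12. Over all 23753 genes and transcripts the median was 0 and the SD was 0.59. None of the 77 ribosomal protein genes reached a 2-fold difference in either direction, against 8.29% of all genes, and none reached 1.5-fold, against 23.0%. Among the 500 genes with the brightest probes, which include 69 of the 77, 0% of the other genes reached 2-fold. The SD of these other genes was 0.19. Their share at 1.5-fold was not computed, so the 23.0% is not a comparison at like signal. The all-gene share at 2-fold divides into 5.25% upwards and 3.03% downwards. Of the 77 genes, 66 had a ratio above 0 and 11 had one below 0, against 45.7% and 49.0% of all genes. With quantile normalization the same counts were 30 and 46, against 43.5% and 51.6% of all genes. Without scaling they were 23 and 54, against 31.8% and 64.1%. Scaled to the spiked-in control RNA all 77 were below 0, against 95.8% of all genes. The sign of the common shift thus depended on the scaling, while the spread between the genes was the same on every linear scale (SD 0.12) and 0.09 with quantile normalization.

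The error of a single ratio was of the same size as these differences. The error model of the scanner software gave the log2 ratio of a single spot an error of 0.20. As scaled here, 18 of the 77 genes differed from 0 by more than the error of their own ratio, 16 upwards and 2 downwards. The same count was not made over all genes, so it does not set these genes apart. Of the other genes among the 100 brightest, 94.8% were above 0 with this scaling. Only RPLP0 exceeded 1.96 times its error, with a log2 ratio of 0.22 and an error of 0.065, because its probe was printed 10 times. Its 10 spots gave ratios from 0.03 to 0.33 with a median of 0.25 and an SD of 0.10, all above 0 as scaled here, whereas the gene's ratio with quantile normalization was -0.03. RPL30, a large-subunit protein gene and the other gene with 10 spots, gave ratios from 0.05 to 0.18 with a median of 0.11 and an SD of 0.04. Over 689 probes with at least 5 spots, the median SD among spots was 0.05. Between probes of 1 gene, it was 0.16 over 3759 genes and 0.11 over the 45 ribosomal protein genes with several probes. All of these errors cover the array and none covers a second culture.

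The 6 largest ratios stood above 0 in all 6 scalings and background treatments other than the spike-in, where they were below 0 with all other members. RPL10, a large-subunit protein that lies close to the peptidyl transferase centre, had log2 values of 5.21 on the DMSO array and 5.61 on the HTE array. RPL13, a large-subunit protein, had 5.04 and 5.41. RPS24, a small-subunit protein mutated in Diamond-Blackfan anaemia, had 4.80 and 5.11. These 3 ratios were 0.40, 0.37 and 0.31. RPL28 of the large subunit had 5.25 and 5.53, a ratio of 0.28. RPS2, which lines the mRNA entry channel, had 5.17 and 5.44, a ratio of 0.27, and of its other 4 probes 3 were above 0 and 1 stood at -0.20. RPL15 of the large subunit had 4.98 and 5.25, again a ratio of 0.27. In all, 19 of the 77 genes kept a ratio of the brightest probe above 0 in these 6 treatments of the data. Median scaling and no scaling lower every ratio by a constant, so the largest ratios are the last to fall below 0 there. Genes outside the 77 were not counted in this way, so there is no share to set beside the 19.

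At the low end, the brightest probes of 5 genes kept their sign under every scaling. RPL27A, a large-subunit protein whose probe was the dimmest of the 77, had log2 values of 0.81 on the DMSO array and 0.56 on the HTE array, a ratio of -0.25. RPS12 of the small subunit had 3.82 and 3.57, also a ratio of -0.25. RPS27A, which is made as a fusion with ubiquitin and cut apart, had 4.04 and 3.85, a ratio of -0.19. RPL22, an RNA-binding large-subunit protein with a close paralogue in RPL22L1, had 3.99 and 3.91, a ratio of -0.09, but its other 2 probes for the same transcript had ratios of 0.15 and 0.30. RPS20 of the small subunit had 4.86 and 4.79, a ratio of -0.08. The brightest probes of these 5 genes were lower on the HTE array under all 7 scalings and background treatments, the spike-in included. Median, no and spike-in scaling move every gene down from the reported values, so they could not turn a ratio already below 0. Genes outside the 77 were not counted for this either. RPL27A, RPS12 and RPS27A had no other probe, and for RPL22 the direction turned with the choice of probe. The only other probe of RPS20, for another transcript, had a ratio of 0.38.

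The genes were next ordered by place in the ribosome. Of the stalk, which recruits the translation factors, RPLP0 had a log2 ratio of 0.22, RPLP1 of 0.06, RPLP2 of 0.11 and RPL12, at its base, of 0.10. RPL5 and RPL11, which carry the 5S RNA into the subunit and bind MDM2 when ribosome assembly is disturbed, had 0.10 and 0.08. Of the proteins that reach into the exit tunnel, RPL4 had 0.22, RPL17 had 0.26 and RPL39 had 0.10. Around the rim of the exit, where the signal recognition particle and the translocon dock, RPL19 had 0.04, RPL23A had 0.13, RPL26 had -0.004, RPL31 had 0.09 and RPL35 had 0.27.

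On the small subunit, RPS3 at the mRNA entry had 0.13 beside the 0.27 of RPS2. At the mRNA exit RPS14 had 0.14, RPS26 had 0.08, RPS28 had 0.15 and RPSA had 0.15, and RPS23 at the decoding centre had 0.12. RPL8, a core protein of the large subunit, had one of the 3 brightest probes, at 5.37 on the DMSO array and 5.52 on the HTE array. RPLP1 had one of the 3 dimmest, at 2.92 and 2.98.

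The subunits were alike. The 46 large-subunit genes had a median log2 ratio of 0.13 and an SD of 0.11, with 41 above 0, and the 31 small-subunit genes had a median of 0.14 and an SD of 0.13, with 25 above 0. The medians stayed side by side with quantile normalization, at -0.02 and -0.02. The 21 genes mutated in Diamond-Blackfan anaemia, an inherited failure of red cell production, had a median of 0.15 (18 above 0), and the other 56 had a median of 0.13 (48 above 0).

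The shift of the ribosomal protein genes was shared by other genes with bright probes. When all genes were cut into 10 groups by signal, 76 of the 77 fell into the brightest group, with a median log2 ratio of 0.14 and an SD of 0.11. The other 2300 genes of that group had a median of 0.02 and an SD of 0.27, and 0.826% of them reached 2-fold. Ribosomal protein genes sit at the bright end of this group, so narrower cuts were also made. Of the 500 brightest genes, the 69 ribosomal protein genes had a median of 0.15 and the other 431 had 0.14. The SDs were 0.09 and 0.19, and 0% of these others reached 2-fold. Of the 200 brightest, 51 ribosomal protein genes had a median of 0.15 and the other 149 had 0.22. Of the 100 brightest, 23 ribosomal protein genes had 0.18 and the other 77 had 0.26, with 94.8% of these others above 0. With quantile normalization, which gives both arrays the same distribution of signal, the ribosomal protein median was -0.02 and lay -0.01 from the median of all genes. The other bright genes were not compared under that normalization. Within the 77 genes the ratio also went with the mean signal (Spearman's rho 0.55, as a description of genes that share both arrays).

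**Figure D2:**
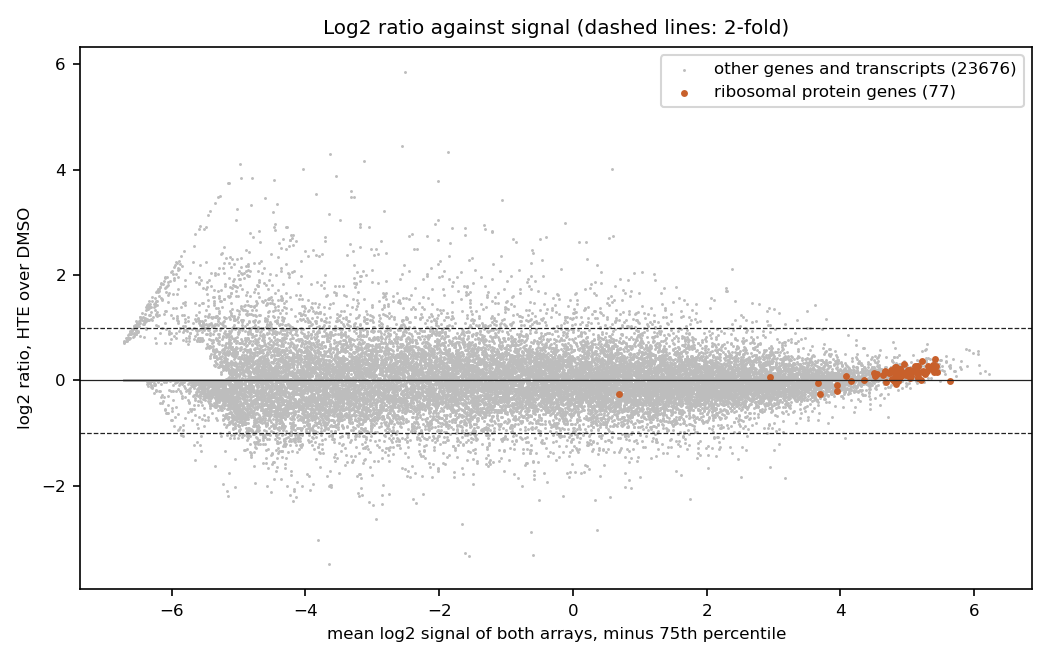
Log2 ratio of HTE over DMSO (y axis) against the mean log2 signal of both arrays minus the 75th percentile (x axis) for the 77 ribosomal protein genes (orange) and the other genes and transcripts (grey), with dashed lines at 2-fold. The ribosomal protein genes form a compact cluster at the bright end, where the grey cloud is narrow and also bends upward with this scaling.

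Other scalings moved the genes as a block. Scaled to the median of each array, the median of the 77 genes was 0.06 with 54 above 0, against 38.8% of all genes. Without any scaling it was -0.04. The E1A spike-in probes read control RNA, and the study's text does not say how much was added to each labelling. Scaled to them, the median of the 77 genes was -1.09, but the median of all genes was then -1.21. In that setting 68.2% of all genes were at least 2-fold lower, with 64 of the 77 ribosomal protein genes among them. The 8 spike-in probes used were 1.05 higher (log2) on the HTE array before scaling, so this setting moves every gene down by more than 1 unit. Relative to the median of all genes, the ribosomal protein median was 0.14 as reported, -0.01 with quantile normalization and -0.07 when dim probes were kept among all genes.

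**Figure D3:**
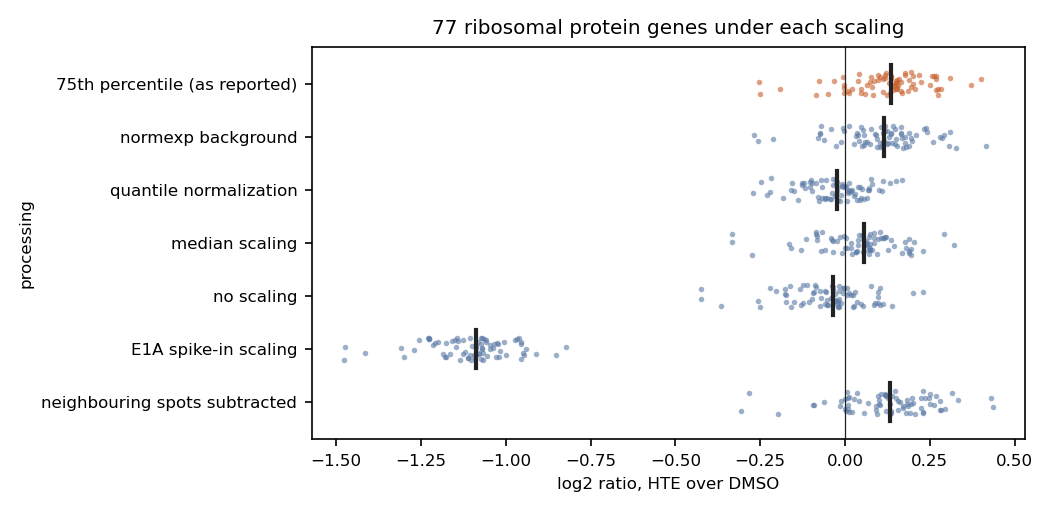
Log2 ratio of HTE over DMSO (x axis) of the 77 ribosomal protein genes (points) with their median (bar) under 7 scalings or background treatments (y axis), the reported one in orange. The cluster stays narrow and slides across 0: its median is 0.14 as reported, -0.02 with quantile normalization, -0.04 without scaling and -1.09 with spike-in scaling.

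Probes for the same gene did not always give the same ratio. Ratios of 1.5-fold or more lay mostly on probes for another transcript, some of them dim. The array held 88 further probes for these genes beside the brightest, counted over 45 genes. Of these, 81 matched the same RefSeq transcript as the brightest probe. They had a median log2 ratio of 0.07 and an SD of 0.17, and 1 of the 81 reached 1.5-fold. The other 7, in 5 genes, were assigned to a different RefSeq transcript. Of these, 4 reached 1.5-fold, and 6 of the 7 had a ratio above 0 as scaled here. These 7 were put together after their values had been seen.

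RPS29, a small-subunit protein that binds zinc, gave the widest gap between its brightest probe and another. Its 3 probes for the transcript NM_001032 had log2 ratios of 0.16, -0.07 and 0.20. The probe for NM_001030001 had log2 values of 0.95 on the DMSO array and 2.24 on the HTE array, a ratio of 1.28 with an error of 0.20, from processed signals of 7783 and 16812. It was the only ribosomal protein probe of 165 at 2-fold, and its ratio stayed between 1.11 and 1.31 under every scaling and background treatment except the spike-in, where it was 0.06. Set against the gene's brightest probe it was 1.12 higher as reported, a difference that a linear scaling cannot change. It was 1.01 higher with normexp background correction, 1.28 with quantile normalization and 1.09 with neighbouring spots subtracted.

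RPL28 had 4 probes, each for a different transcript. The brightest, for NM_000991, had a ratio of 0.28. The probe for NM_001136137 had values of -2.39 and -1.43, a ratio of 0.96 with an error of 0.21. The probe for NM_001136134 had 0.85 and 1.46, a ratio of 0.61. The probe for NM_001136136 had -4.45 and -5.02, a ratio of -0.58 with an error of 0.34, at the dim end of the array with processed signals of 185 and 110. The first 2 alternative probes lay above the main probe and the last lay below it as reported, which a linear scaling cannot change. The order was the same with normexp background correction, quantile normalization and subtraction of neighbouring spots.

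The remaining transcript probes were those of RPS24 for NM_001142285, with a ratio of 0.74, RPS14 for NM_005617, with 0.46, and RPS20 for NM_001146227, with 0.38. The RPS24 probe was the dimmest of the 165, with a processed signal of 78.7 on the DMSO array and an error of 0.42, and its ratio was 0.49 with normexp background correction. Each of the 3 lay above its gene's brightest probe, by 0.43, 0.32 and 0.46. The sequences of the probes were not used here, so which exons or introns they read is not known from these values.

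Among genes with probes for a single transcript, RPL10 and RPSA spread the most. The 4 probes of RPL10 had ratios of 0.40, 0.21, 0.31 and 0.73, the last from the dimmest of them, and none fell below 0 as scaled here. RPSA, a small-subunit protein first described as a laminin receptor, had 5 probes whose ratios were 0.15, 0.10, 0.06, -0.04 and -0.41, in order from the brightest to the dimmest. Ribosomal protein genes have many processed pseudogenes, and a probe can also catch those transcripts or other members of the family, which these values cannot separate. RPL21, with 9 probes the most of any member and named here after its values were seen, had ratios from -0.16 to 0.08. Among the 41 genes with at least 2 probes for the same transcript, the brightest probe had a higher ratio than the dimmest in 27.

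**Figure D4:**
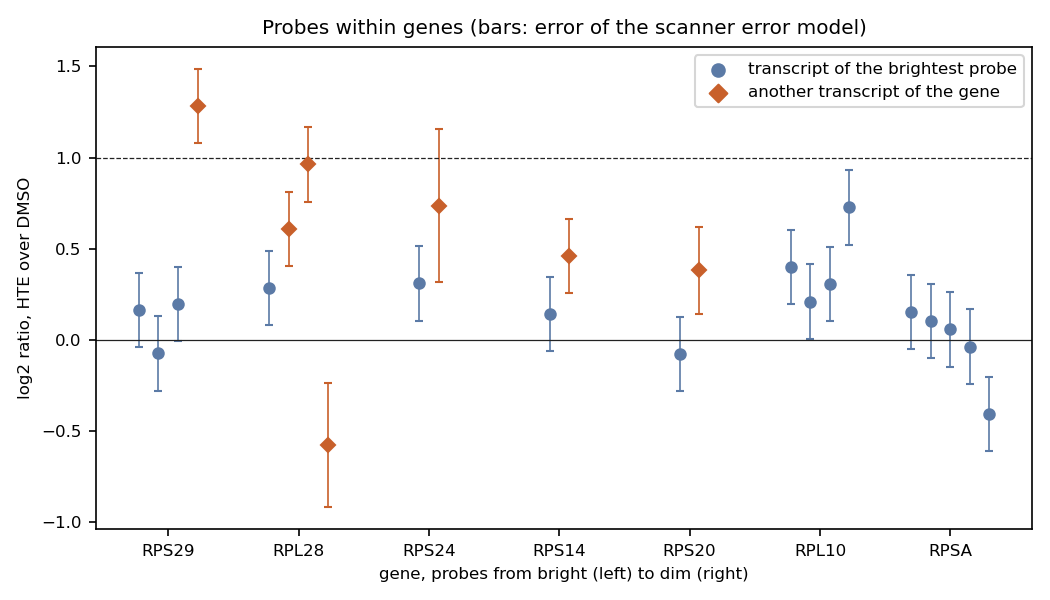
Log2 ratio of HTE over DMSO (y axis) for each probe of 7 ribosomal protein genes (x axis), in order of signal within a gene, with bars for the error of the scanner's error model. Blue circles are probes for the transcript of the brightest probe and orange diamonds are probes for another transcript, among which RPS29 stands at 1.28 and RPL28 spreads from -0.58 to 0.96. The scaling is that of the 75th percentile, and the spike-in scaling moves every point down together.

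The share of signal held by these genes was also compared. The 165 probes are 0.327% of the probes on the array and held 5.48% of the summed signal on the DMSO array and 5.83% on the HTE array. With normexp background correction the shares were 5.46% and 5.77%. Such a share does not depend on a linear scaling of an array, and it was not computed after quantile normalization.

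The ribosomal protein genes were then set beside the other genes of the ribosome and of translation. Among ribosome components that the naming rule leaves out, FAU, a fusion with a small-subunit protein, had a log2 ratio of 0.09, and the scaffold protein RACK1 had 0.40. The 8 paralogues of ribosomal proteins had a median of 0.04, from -0.18 for RPL22L1 to 0.38 for RPL7L1. Among them RPL3L was not well above background on the HTE array and entered with a ratio set to 0. The median of 19 other TOP mRNAs was 0.09, with 16 above 0 and 3 below, and the extremes were NPM1, a nucleolar chaperone, at -0.27 and the filament protein VIM at 0.46. The 11 snoRNA host genes of the TOP class had a median of 0.17, from -0.50 for SNHG12 to 0.70 for SNHG15. The translation factors were centred near 0: 35 initiation factors had a median of 0.04 (20 above 0, 15 below), from EIF2B5 at -0.36 to EIF3I at 0.44, and 13 elongation and termination factors had 0.03, from GSPT2 at -0.41 to EEF1A2 at 0.88. All of these medians were below 0 with spike-in scaling and also without scaling.

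The genes that build ribosomes lay lower than the genes for their parts. Of 96 ribosome biogenesis factors, which process ribosomal RNA and assemble the subunits, 13 had a log2 ratio above 0 and 83 below 0, the median was -0.29, and 13 (13.5%) were at least 1.5-fold lower, against 10.5% of all genes. They ran from UTP15, part of the small-subunit processome, at -0.94 to RCL1, a factor in processing of the small-subunit RNA, at 0.99. The 7 dedicated chaperones that escort single ribosomal proteins had a median of -0.30, with 1 above 0 and 6 below, from GRWD1, the chaperone of RPL3, at -0.43 to PDCD2, the chaperone of RPS2, at 0.12. The 15 genes of RNA polymerase I, which transcribes the large ribosomal RNA, had a median of -0.25 (4 above 0, 11 below), and TAF1A, part of its promoter-binding factor, was 2.59-fold lower at -1.37 while the subunit POLR1D stood at 0.32. The 22 genes of RNA polymerase III, which makes the 5S RNA and tRNAs, had a median of -0.18 (8 above 0, 14 below), from POLR3G at -0.88 to MAF1, its repressor, at 0.85.

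The median of the ribosomal protein genes exceeded that of biogenesis factors by 0.42, of chaperones by 0.43, of RNA polymerase I genes by 0.38 and of RNA polymerase III genes by 0.31. These 4 differences do not depend on a linear scaling, and with quantile normalization they were 0.245, 0.248, 0.241 and 0.126. The lists differ in signal as well as in function, since the ribosomal protein probes lie at the bright end of the array and those of the other lists do not, and the part of signal in these differences was not tested beyond that normalization. The genes were listed from textbook knowledge and with earlier results of these data known.

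Further lists touch the ribosomal protein genes from outside. The 77 mitochondrial ribosomal protein genes, as many as the cytosolic ones by the same kind of naming rule, had a median log2 ratio of -0.10, with 23 above 0 and 54 below, and ran from MRPS16 at -0.47 to MRPL38 at 0.35. Their SD was 0.17, and none reached 1.5-fold. The cytosolic median was 0.23 above theirs as reported and 0.06 above with quantile normalization. The 20 regulators of mTORC1 and of TOP mRNAs had a median of -0.06 (9 above 0, 11 below), from DEPTOR, an inhibitor of the complex, at -0.33 to SESN2, a stress-induced inhibitor of mTORC1, at 1.59, with log2 values of 0.05 on the DMSO array and 1.65 on the HTE array. SESN2 was the only gene of that list at 2-fold. Translation of the TOP mRNAs was not measured.

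**Figure D5:**
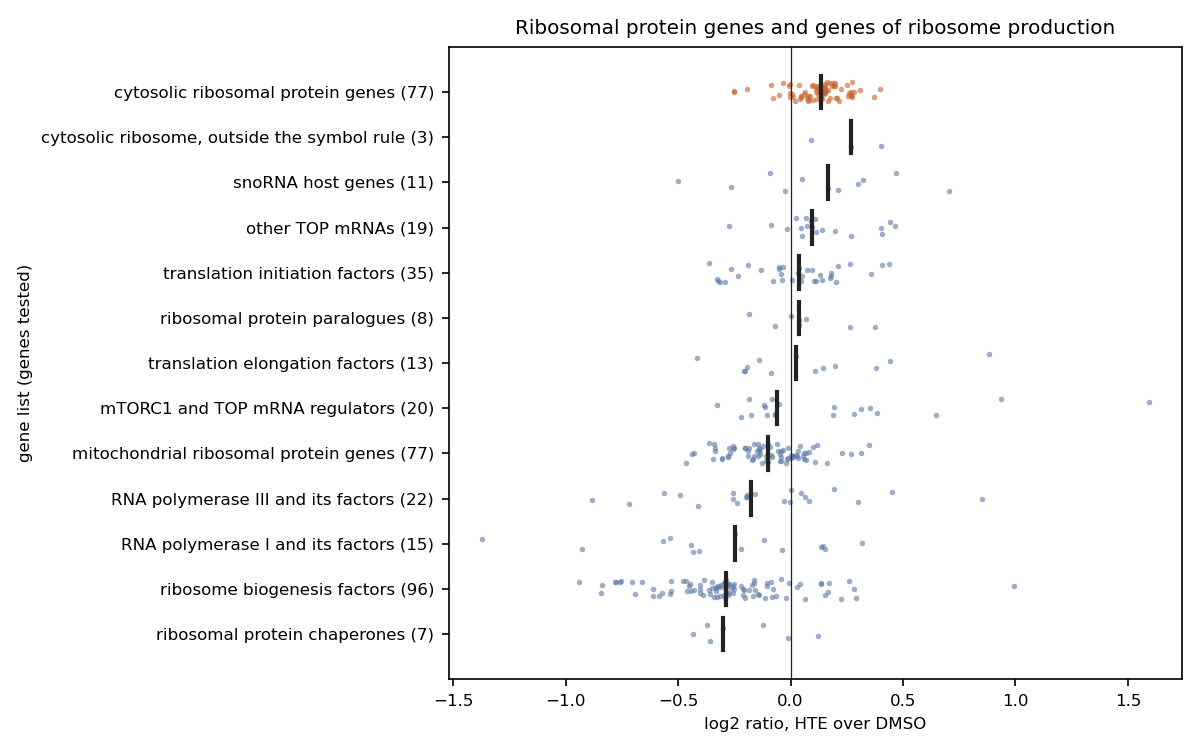
Log2 ratio of HTE over DMSO (x axis) for single genes (points) and their median (bar) in the 77 cytosolic ribosomal protein genes (orange) and 12 companion lists (blue), with the number of genes tested in parentheses. The cytosolic genes form the narrowest long list, with a median of 0.14, and biogenesis factors have a median of -0.29. Positions relative to 0 hold for 75th percentile scaling, and the spike-in scaling moves every median below 0.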

How the data were processed

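The authors extracted total RNA with Trizol, labelled it with Cy3 and scanned 2 Agilent arrays, which share a slide and a scan. The labels name Agilent Feature Extraction 10.7, and the file headers name 11.5.1.1 and the build hg19. The deposited values used are intensities: the processed signal, its error, and the median and background signal of each spot. For each array, log2 of the processed signal was taken minus its 75th percentile over 58717 non-control spots. Outlier spots were left out, repeated spots were averaged, and each gene took the values of its brightest probe. Probes entered when a share of 0.5 or more of their spots passed the well-above-background flag on either array. A gene below background on 1 array had only a bounded ratio, and was set to 0 where no bound above 1-fold remained. Probes were named through RefSeq accessions, which matched 28174 of 50599 probes, and the others kept the name in the file. With 1 array per group nothing was tested, and the number of arrays limits the precision. Named genes are the 6 highest and 6 lowest ratios, the 3 brightest and 3 dimmest members, members whose probes differ by over 0.5, genes of each ribosomal site and the extremes of each companion list. Some genes that this rule names are not reported here. The members, sites and lists were chosen with earlier results of these data known. Of the listed genes, 96 of 98 biogenesis factors, 35 of 36 initiation factors and 11 of 12 snoRNA hosts could be measured. Protein length and composition were not analysed here. The steps were tested on simulated data. Python 3.11.15, numpy 2.4.6, pandas 2.3.3, matplotlib 3.10.9, R 4.3.3 and limma 3.58.1 (normexp, offset 50) were used.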

Additional observations from a re-analysis of the deposited data

How the results depend on the processing

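No paired analysis was possible because there was 1 array per condition, and no replicate could be left out. Normexp was run on the median signal, since the mean signal was not used here. Leaving dim probes in or out, their own value in place of a bound, and outlier spots left the median of the 77 ribosomal protein genes at 0.135. Without the filter on dim probes, its distance from the median of all genes was -0.0663 in place of 0.135. With quantile normalization the median was -0.0226 (30 above 0, 46 below) and lay -0.0061 from that of all genes, of which 43.5% were above 0 and 51.6% below. The ribosomal protein median minus that of each list was then -0.0798 for the components outside the naming rule, 0.00182 for paralogues, -0.0338 for initiation factors, -0.104 for other TOP mRNAs, -0.156 for snoRNA hosts, 0.245 for biogenesis factors, 0.241 for RNA polymerase I, 0.126 for RNA polymerase III, 0.248 for chaperones, 0.0108 for mTORC1 regulators and 0.0564 for mitochondrial ribosomal proteins. Scaling to the median gave 0.0551 (23 below 0), no scaling gave -0.0359 (23 above, 54 below), and spike-in scaling gave -1.09 (0 above, 77 below, 64 at 2-fold). Of all genes, 56.5%, 64.1% and 95.8% were below 0 in these settings. Averaging all probes of a gene changed the difference to 0.0082 for elongation factors, 0.0657 for snoRNA hosts, 0.255 for RNA polymerase III and 0.0411 for mTORC1 regulators. Taking the dimmest probe gave 19 genes below 0 and 1 at 2-fold, and differences of -0.0465 for elongation factors, -0.0124 for other TOP mRNAs, 0.0451 for snoRNA hosts, 0.182 for RNA polymerase III and -0.0994 for mTORC1 regulators. Subtracting neighbouring spots gave 0.51 for RNA polymerase I and 0.26 for RNA polymerase III, and normexp gave 0.24 for RNA polymerase III. The differences to biogenesis factors and chaperones stayed above 0 in all settings run. Of 35 named ribosomal protein genes, all 35 shifted beyond the spread of replicate spots with median, no or spike-in scaling, 28 with quantile normalization, 18 with the dimmest probe, 15 with the mean over probes, 8 with normexp and 8 with neighbouring spots subtracted. The cause of these shifts was not tested. The treatment of probes for other transcripts was added after seeing the data.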
